A study of Mus musculus with 24 samples.

Results

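Immunoglobulin V segments are the gene pieces that encode most of the antigen-binding part of an antibody chain. They were taken as every row of the count table whose mouse symbol starts with Ighv (heavy chain), Igkv (kappa light chain) or Iglv (lambda light chain), which gave 226 of 27179 rows. Of these, 120 were Ighv segments of 16 families on chromosome 12 (GRCm38, 113578504 to 116009954), 103 were Igkv segments of 20 families on chromosome 6 (67555636 to 70704177) and 3 were Iglv segments on chromosome 16 (19085017 to 19260844). The RefSeq annotation marked 225 as V segments and 1 as a V segment pseudogene.

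RNA was sequenced from 24 sorted populations of colonic lamina propria, 3 from each of 8 mice. All mice carried the Nmur1 iCre-eGFP allele, in which eGFP marks cells that transcribe Nmur1, encoding a neuromedin U (NMU) receptor, and all drank 3% dextran sulfate sodium (DSS), a colitis-inducing agent, for 5 days followed by water for 3 days. Mice 1 to 4 received NMU and mice 5 to 8 received PBS by intraperitoneal injection, so that each of the 6 groups held 4 libraries; the series text gives 3 mice per treatment where the sample titles name 4. No source used here gives the animals' ages. The populations were Nmur1-eGFP+ CD4 T cells (called NMUR1+ CD4 below), Nmur1-eGFP- CD4 T cells (NMUR1- CD4), both gated as CD45+ CD3+ CD5+ CD4+, and Nmur1-eGFP+ group 2 innate lymphoid cells (ILC2), gated as CD45+ Lin- CD90.2+ CD127+ KLRG1+. The gates as stated name no plasma cell marker, and no source used here lists the lineage markers.

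A B cell builds its heavy chain gene by joining 1 V segment to further segments in front of a constant gene, and its light chain gene in the same way, so each B cell clone carries its own pair of productive V segments. Plasma cells, the antibody-secreting descendants of B cells, devote a large part of their mRNA to these rearranged genes. In the intestinal lamina propria most plasma cells make IgA, whose heavy chain constant gene is Igha and whose polymers are held together by the joining chain Jchain. T cells and ILC2 assemble no productive immunoglobulin genes. The V segment profile of a library, meaning each segment's counts as a share of the library's summed V segment counts, therefore depends, for RNA of B-lineage cells, on which clones are present. The comparison asked whether the 3 populations of 1 mouse shared a profile that other mice did not have.

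The 6 kappa segments printed next are shown because each led 1 or more libraries and is traced through the populations of a mouse; they are 6 of the 11 segments that led a library. They are the last 300 bases of each coding sequence in the GENCODE M21 annotation of GRCm38, read 5′ to 3′ on the annotated strand and joined across exons. Capitals mark the bases that differ from the most similar other V segment of the table that has an annotated coding sequence. The coordinates are those of the whole annotated segment. Igkv6-15 (chr6:70406469-70406992, minus strand) was nearest to Igkv6-23 at 94.6% identity. Igkv4-61 (chr6:69416893-69417455, minus strand) was nearest to Igkv4-54 at 96.9%, and Igkv12-44 (chr6:69814631-69815154, minus strand) to Igkv12-41 at 95.7%. Igkv1-110 (chr6:68270485-68271267, plus strand) was nearest to Igkv1-117 at 97.2%, Igkv8-30 (chr6:70117061-70117620, minus strand) to Igkv8-21 at 92.7% and Igkv8-24 (chr6:70216858-70217421, minus strand) to Igkv8-30 at 91.0%.
Igkv6-15: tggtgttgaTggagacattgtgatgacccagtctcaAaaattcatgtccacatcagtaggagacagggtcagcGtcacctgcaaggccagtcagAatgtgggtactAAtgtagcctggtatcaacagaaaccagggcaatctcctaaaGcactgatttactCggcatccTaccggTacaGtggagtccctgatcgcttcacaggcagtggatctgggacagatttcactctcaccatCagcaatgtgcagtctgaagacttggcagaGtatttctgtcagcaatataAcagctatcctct
Igkv4-61: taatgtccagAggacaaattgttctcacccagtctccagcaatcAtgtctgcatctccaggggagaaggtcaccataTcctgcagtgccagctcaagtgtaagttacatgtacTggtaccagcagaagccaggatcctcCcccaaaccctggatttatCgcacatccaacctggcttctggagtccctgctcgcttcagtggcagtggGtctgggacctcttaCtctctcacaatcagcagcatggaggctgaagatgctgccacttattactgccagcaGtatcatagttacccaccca
Igkv12-44: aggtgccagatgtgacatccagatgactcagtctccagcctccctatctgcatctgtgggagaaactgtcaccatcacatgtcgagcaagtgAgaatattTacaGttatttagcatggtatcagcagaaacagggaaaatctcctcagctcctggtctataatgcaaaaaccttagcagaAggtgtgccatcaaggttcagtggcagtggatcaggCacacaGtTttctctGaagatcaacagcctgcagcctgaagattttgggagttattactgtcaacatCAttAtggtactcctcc
Igkv1-110: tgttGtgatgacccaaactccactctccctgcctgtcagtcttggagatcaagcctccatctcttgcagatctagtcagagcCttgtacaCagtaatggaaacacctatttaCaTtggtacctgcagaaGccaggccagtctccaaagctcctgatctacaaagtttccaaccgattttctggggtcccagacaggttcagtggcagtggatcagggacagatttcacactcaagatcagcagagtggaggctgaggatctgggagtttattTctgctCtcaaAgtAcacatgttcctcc
Igkv8-30: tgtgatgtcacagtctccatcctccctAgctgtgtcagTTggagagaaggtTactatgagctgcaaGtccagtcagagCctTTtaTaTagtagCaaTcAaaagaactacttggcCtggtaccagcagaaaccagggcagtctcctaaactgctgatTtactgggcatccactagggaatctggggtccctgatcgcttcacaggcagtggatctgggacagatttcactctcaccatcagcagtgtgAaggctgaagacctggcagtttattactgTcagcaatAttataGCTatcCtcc
Igkv8-24: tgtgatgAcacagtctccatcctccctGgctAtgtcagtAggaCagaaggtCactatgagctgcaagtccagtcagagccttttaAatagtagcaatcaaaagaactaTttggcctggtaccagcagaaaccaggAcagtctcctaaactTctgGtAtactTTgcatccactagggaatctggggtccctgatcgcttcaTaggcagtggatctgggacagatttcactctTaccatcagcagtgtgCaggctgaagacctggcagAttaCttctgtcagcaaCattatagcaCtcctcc

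The distance to the nearest relative bears on how surely a read can be given to 1 segment. Of the 226 segments, 213 matched an annotated coding sequence, with a median length of 351 bases, and the median identity to the nearest other segment was 94.6% (range 60.9 to 99.7). The 18 segments at 98% identity or more, whose counts could be split between near copies, held 3.48% of the counts of these 213. Segments without an annotated coding sequence were not compared. Somatic mutation in plasma cells can add mismatches to the printed germline sequences, and its effect on the counts was not tested.

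Library depth ranged from 8485266 to 17854961 counts (median 12468364), and V segments took from 338 counts in the ILC2 of mouse 1 to 1136311 counts in the NMUR1+ CD4 library of mouse 4 (median 68477). The ILC2 library of mouse 1 had the coarsest profile, with a count for 17 segments. Checked against defining markers, the summed level of 7 T cell genes was 4420 to 7585 CPM (counts scaled to a library size of 1e6 counts) in NMUR1+ CD4, 6934 to 7925 in NMUR1- CD4 and 105 to 309 in ILC2. The summed level of 8 ILC2 genes was 3133 to 3950 CPM in NMUR1+ CD4, 1835 to 2487 in NMUR1- CD4 and 11242 to 13724 in ILC2. Nmur1 itself had a median of 38.1 CPM (4.41 to 70.2) in NMUR1+ CD4, 4.02 (1.71 to 8.22) in NMUR1- CD4 and 242 (170 to 351) in ILC2. Nmur1 was higher in NMUR1+ than in NMUR1- CD4 in 7 of 8 mice. In mouse 1 it went against the labels, at 4.41 CPM in the library labelled NMUR1+ CD4 and 7.72 CPM in that labelled NMUR1- CD4, or 6.33 and 7.95 CPM when scaled to counts outside immunoglobulin genes. The main comparisons that use the library labelled NMUR1+ CD4 of mouse 1, and several that use its library labelled NMUR1- CD4, are therefore also given without that mouse.

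V segment RNA was highest in the NMUR1+ CD4 library of every mouse. In mice 1 to 8 it made up 8.22, 0.238, 3.69, 8.08, 7.24, 0.655, 6.08 and 4.16% of all counts in NMUR1+ CD4 (mean 4.80 ± 3.16, SD, n = 8). In NMUR1- CD4 the shares were 0.773, 0.0573, 0.121, 1.503, 1.01, 0.101, 0.0979 and 0.0302% (0.462 ± 0.562). In ILC2 they were 0.00332, 0.102, 0.296, 0.0604, 2.01, 0.163, 0.459 and 1.35% (0.555 ± 0.730). Mouse 2 was lowest in NMUR1+ CD4, mouse 8 in NMUR1- CD4 and mouse 1 in ILC2. The ranges of the 3 populations overlapped across mice, although NMUR1+ CD4 was highest within each mouse.

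**Figure D1:**
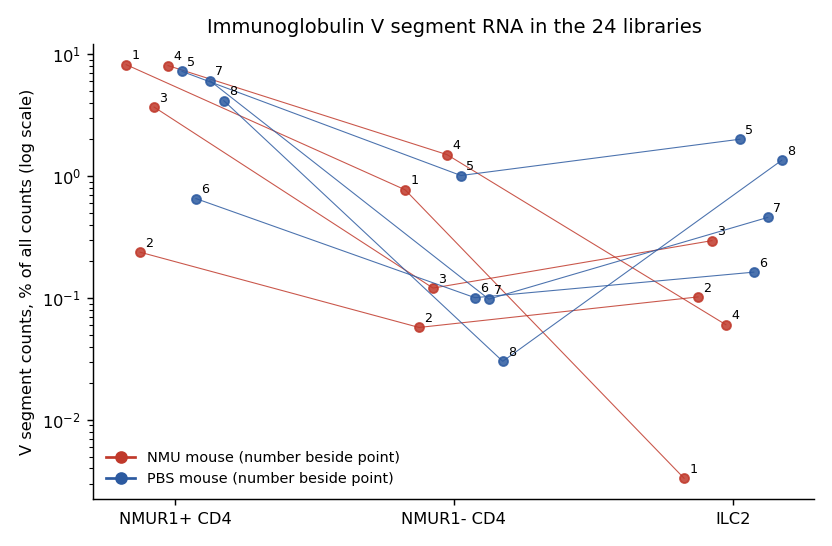
V segment counts as a percent of all counts (log scale) in the 24 libraries, by sorted population, with lines joining the 3 libraries of a mouse and the mouse number beside each point. The NMUR1+ CD4 point is the highest of its mouse for all 8 mice, from 0.238 to 8.22%, while the order of NMUR1- CD4 and ILC2 differs between mice.

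The within-mouse ratio of NMUR1+ CD4 to NMUR1- CD4 ranged from 4.14 to 138 (median 8.90), and that of NMUR1+ CD4 to ILC2 from 2.33 to 2477 (median 8.25). As log2 of the percent of all counts, the summed V share was higher by 3.93 in NMUR1+ CD4 than in NMUR1- CD4 (8 of 8 mice; exact permutation test, two-sided, p = 0.00311, adjusted over 3 pairs 0.00676) and higher by 4.05 than in ILC2 (8 of 8 mice; exact p = 0.00451, adjusted 0.00676). Without mouse 1 these differences were 4.00 and 3.02 (exact permutation, adjusted p = 0.0175 and 0.0245). These tests exchanged libraries without regard to the mouse. With mouse as a block both differences kept their calls (exact permutation, adjusted p = 0.0117 each). NMUR1- CD4 and ILC2 differed by 0.12 (higher in 2 of 8 mice, exact permutation, adjusted p = 0.926), which is within the spread between mice. Without mouse 1 that difference was -0.98 (exact permutation, adjusted p = 0.365). In bulk RNA, fewer plasma cells and less V segment RNA per cell cannot be told apart.

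Most plasma cell genes were also highest in NMUR1+ CD4, with the highest median CPM there for 9 of 11 genes. The other 2 encode transcription factors that T cells also use: Irf4 had medians of 95.9 CPM in NMUR1+ CD4, 108 in NMUR1- CD4 and 121 in ILC2, and Prdm1 of 46.5, 50.2 and 20.7. The summed level of 11 plasma cell genes was 2365 to 71580 CPM (median 29942) in NMUR1+ CD4, 1382 to 12053 (2072) in NMUR1- CD4 and 964 to 16508 (2118) in ILC2, and Jchain made up a median of 91.9, 37.9 and 57.2% of that sum. Igha, the IgA constant gene, had medians of 58670, 1142 and 1718 CPM in the same order, and Jchain of 27517, 780 and 1223 CPM. Sdc1, which encodes the plasma cell surface protein CD138, was higher in NMUR1+ CD4 than in NMUR1- CD4 by 3.14 ± 0.69 on the log2 scale (SE, edgeR quasi-likelihood test, Benjamini-Hochberg adjusted p = 0.00643). It was higher than in ILC2 by 3.30 ± 0.69 (edgeR adjusted p = 0.000841). That fit did not pair the libraries of a mouse. The 11 B cell genes summed to 167 to 350 CPM in NMUR1+ CD4, 77.3 to 242 in NMUR1- CD4 and 49.7 to 176 in ILC2, where Pax5, the transcription factor that keeps B cell identity and is silenced in plasma cells, had no count in any of 8 libraries. The part of plasma cells or of free RNA in the V segment counts was not tested.

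NMU treatment went with no V segment level difference past the threshold. In ILC2 the 4 NMU mice had 0.00332 to 0.296% and the 4 PBS mice 0.163 to 2.01%, groups that overlap. The log2 difference, NMU minus PBS, was -3.76 (exact permutation p = 0.0571, adjusted over 3 populations 0.171, where 0.0286 is the smallest p that 4 against 4 allows). In NMUR1+ CD4 it was -0.26 (exact permutation, adjusted p = 0.829) and in NMUR1- CD4 1.18 (exact permutation, adjusted p = 0.729). Without mouse 1, whose ILC2 library had 338 V counts, the ILC2 difference was -2.46 (exact permutation, adjusted p = 0.343). Those of NMUR1+ CD4 and NMUR1- CD4 were then -0.79 and 0.73 (exact permutation, adjusted p = 0.629 each). Whether the treatment difference differed between populations was tested for each pair by exchanging the treatment labels of mice, and no pair passed (exact permutation, adjusted p = 0.257 for each of 3 pairs).

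A relation between the levels of V segment RNA in 2 populations of a mouse was not detectable with 8 mice. Over 8 mice, Pearson's r of the log2 V share was 0.58 between NMUR1+ CD4 and NMUR1- CD4 (exact permutation p = 0.142, adjusted 0.425; Spearman's rho 0.67, p = 0.0831, adjusted 0.249). It was 0.00147 between NMUR1+ CD4 and ILC2 (adjusted permutation p = 0.997; rho -0.19, p = 0.665, adjusted 0.665) and -0.37 between NMUR1- CD4 and ILC2 (adjusted permutation p = 0.566; rho -0.29, p = 0.501, adjusted 0.665). Without the 2 mice farthest from the median on the first axis, the 3 values of r were 0.84, -0.51 and -0.90 (exact permutation, adjusted p = 0.075, 0.290 and 0.075), so the size of each relation rests on those mice.

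A library had a count for 17 to 203 of the 226 segments, while 1 to 32 segments reached 1% of its V counts. Across the 24 libraries 4 segments had no count, 5 had a count in every library, 116 reached 1% of the V counts of some library, 41 reached 5% and 20 reached 10%. Of the 41, 13 were Ighv, 26 Igkv and 2 Iglv, and 25 reached 5% in 1 library only. Light chain segments of the kappa class held 55.8 to 99.8% of V counts (median 67.0), heavy chain segments 0.160 to 40.6% (median 28.3) and lambda segments 0 to 15.2% (median 3.15). Shares of the V sum compare segments of nearly equal length, since coding lengths ran from 294 to 394 bases.

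By family, Ighv1, the largest with 60 members, held a mean of 15.4% of V counts over the 24 libraries. Igkv8 held 14.3%, Igkv6 13.6%, Igkv4 10.4%, Igkv1 8.50% and Igkv12 7.14%. The Igkv8 family had a median of 11.9% in NMUR1+ CD4, 23.4% in NMUR1- CD4 and 1.502% in ILC2, a description over 8 libraries each, with a range over all libraries of 0.108 to 55.9%. The 51 Igkv segments nearest to Igkc held a median of 63.6% of Igkv counts (6.11 to 99.7), and the 60 Ighv segments nearest to Ighm held 43.4% of Ighv counts (2.63 to 71.1).

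Igkv8-30 and Igkv6-15 had the highest mean shares. Igkv8-30 averaged 7.71 ± 9.39% (SD, n = 24), reached 1% in 17 libraries and was the leading segment in 6. Its median was 11.2% in NMUR1+ CD4 (0.0288 to 28.6), 7.07% in NMUR1- CD4 (0.481 to 30.3) and 0.512% in ILC2 (0 to 4.36). Igkv6-15 averaged 7.30 ± 20.1%, with a median of 1.60% in NMUR1+ CD4, 1.33% in NMUR1- CD4 and 1.62% in ILC2, so its mean rests on 1 ILC2 library at 98.8%. Igkv1-110 averaged 4.41 ± 7.88%, Igkv12-44 4.36 ± 10.3% and Igkv10-96 3.38 ± 5.36%.

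Among heavy chain segments, Ighv1-81 averaged 3.53 ± 5.79%, and the next 4 were Ighv1-64 at 1.56 ± 1.86%, Ighv5-4 at 1.53 ± 5.52%, Ighv8-8 at 1.38 ± 4.74% and Ighv1-76 at 1.08 ± 2.11%. For each of these 5 the SD exceeded the mean. Iglv1, the lambda segment used by most mouse lambda chains, averaged 4.12 ± 4.19% and reached 1% in 20 libraries, more than any of the 10 Ighv and Igkv segments named above. Iglv2 and Iglv3 averaged 0.416 ± 1.63% and 0.134 ± 0.309%, each with 1 library above 1%; for Iglv2 that library was the ILC2 of mouse 5 at 8.07%.

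The leading segments were read mouse by mouse. In mouse 3, Igkv6-15 made up 98.8% of the 36934 V counts of the ILC2 library (95% Wilson interval 98.7 to 98.9), 9.91% of those in NMUR1+ CD4 and 0.142% in NMUR1- CD4. In mouse 2, Igkv4-61 made up 67.0% of ILC2 V counts (66.0 to 68.0), 5.38% in NMUR1- CD4 and 0.00628% in NMUR1+ CD4. Ighv8-8 was the leading heavy chain segment of that ILC2 library, at 23.0% of V counts and 93.6% of Ighv counts, against 1.41% of V counts in NMUR1- CD4 and 0.0691% in NMUR1+ CD4. The libraries of mice 2 and 3 were thus led by 1 kappa segment in ILC2 that was not the leading segment of either T cell library of that mouse.

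In mouse 7, Igkv12-44 made up 49.9% of ILC2 V counts (49.4 to 50.3), 15.1% in NMUR1+ CD4, where it also led, and 0.757% in NMUR1- CD4. The heavy chain segment Ighv5-9-1 held 10.5% in the same ILC2 library, 1.51% in NMUR1+ CD4 and 0.0176% in NMUR1- CD4. The second segment of mouse 7 was Igkv8-30, at 30.3% in NMUR1- CD4 (29.5 to 31.2), 8.31% in NMUR1+ CD4 and 0.713% in ILC2. NMUR1+ CD4 of mouse 7 therefore held the leading segments of both other libraries at intermediate shares.

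In mouse 6, Igkv1-110 made up 39.2% of ILC2 V counts (38.5 to 39.9), 3.03% in NMUR1+ CD4 and 0.381% in NMUR1- CD4. Ighv1-81 was second, at 24.3% in ILC2, 6.80% in NMUR1- CD4 and 5.94% in NMUR1+ CD4, and held 78.3% of the Ighv counts of the ILC2 library. Igkv8-24 made up 17.6% in NMUR1- CD4 and 9.52% in NMUR1+ CD4 of mouse 6, and 0.458% in ILC2.

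In mouse 8, the 2 segments with the highest mean share over the 3 libraries, Iglv1 and Igkv8-24, were high in different populations. Iglv1 held 15.2% of V counts in NMUR1+ CD4 (15.1 to 15.3), 15.0% in ILC2 and 1.85% in NMUR1- CD4. Igkv8-24 held 29.0% in NMUR1- CD4 (27.8 to 30.3), 0.00703% in ILC2 and no count among 462468 in NMUR1+ CD4, which allows a share of up to 0.000649%. The heavy chain segment Ighv5-4 was at 27.3% in NMUR1- CD4, 0.0013% in NMUR1+ CD4 and 0.00293% in ILC2. In the NMUR1- CD4 library of mouse 8, Igkv8-24 and Ighv5-4 together made up 56.3% of V counts, and both were near 0 in the other populations of the same mouse. The ILC2 library was led by Igkv6-15, at 20.7%, which held 0.759% in NMUR1- CD4 and 0.00822% in NMUR1+ CD4.

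In mouse 4 the leading segments were above 2% in all 3 populations. Igkv12-44, which led NMUR1+ CD4, held 6.60% there, 2.33% in NMUR1- CD4 and 5.92% in ILC2. Iglv1 held 5.27% in NMUR1+ CD4, 9.18% in NMUR1- CD4 and 6.70% in ILC2, and Igkv6-15 held 5.42, 4.54 and 5.59%. In mouse 5, Igkv8-30 held 14.2% in NMUR1+ CD4, 7.12% in NMUR1- CD4 and 1.41% in ILC2, and Igkv6-23 held 3.83, 5.06 and 11.7%. Mouse 1 had Igkv10-96 at 4.71, 1.65 and 26.3%, the last from 89 of 338 counts (interval 21.9 to 31.3), and Igkv6-15 at 5.27% in NMUR1+ CD4, 11.6% in NMUR1- CD4 and 0 of 338 counts in ILC2, which allows up to 0.888%. Intervals and limits from a count of 0 cover counting error only, since reads from amplified cDNA are not independent molecules.

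**Figure D2:**
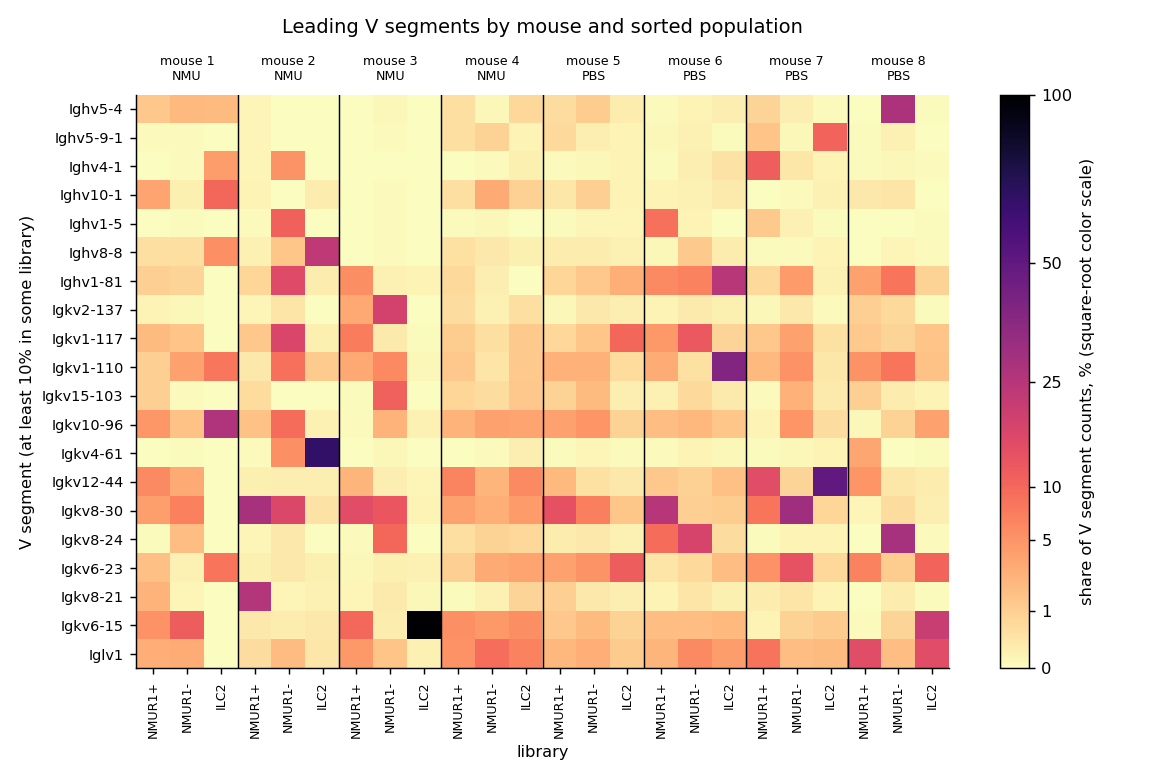
Share of V segment counts (color, square-root scale, in percent) of the 20 segments that reached 10% in some library, in the 3 libraries of each mouse. Dark cells, such as Igkv6-15 at 98.8% in the ILC2 of mouse 3 and Igkv4-61 at 67.0% in the ILC2 of mouse 2, are mostly single cells within a mouse rather than runs of 3.

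Over all libraries 11 different segments led. No mouse had the same leading segment in all 3 populations, 3 mice had the same in 2 populations and 5 mice had 3 different ones. Igkv8-30 led 6 libraries, Igkv12-44 led 4, and Iglv1 and Igkv6-15 led 3 each.

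The whole profiles were compared by their overlap, the sum over segments of the smaller of the 2 shares, which is 0% for profiles with no segment in common and 100% for identical ones. Profiles of NMUR1+ CD4 and NMUR1- CD4 from the same mouse overlapped by 53.1, 25.8, 26.9, 59.8, 66.0, 38.3, 30.1 and 23.96% in mice 1 to 8. NMUR1+ CD4 and ILC2 overlapped by 18.6, 2.73, 10.6, 71.8, 32.2, 24.8, 30.0 and 37.7%. NMUR1- CD4 and ILC2 overlapped by 13.7, 10.5, 1.08, 62.3, 36.1, 32.3, 13.2 and 12.6%. Mouse 4 was highest in both comparisons with ILC2, and no pair of populations was alike in every mouse.

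**Figure D3:**
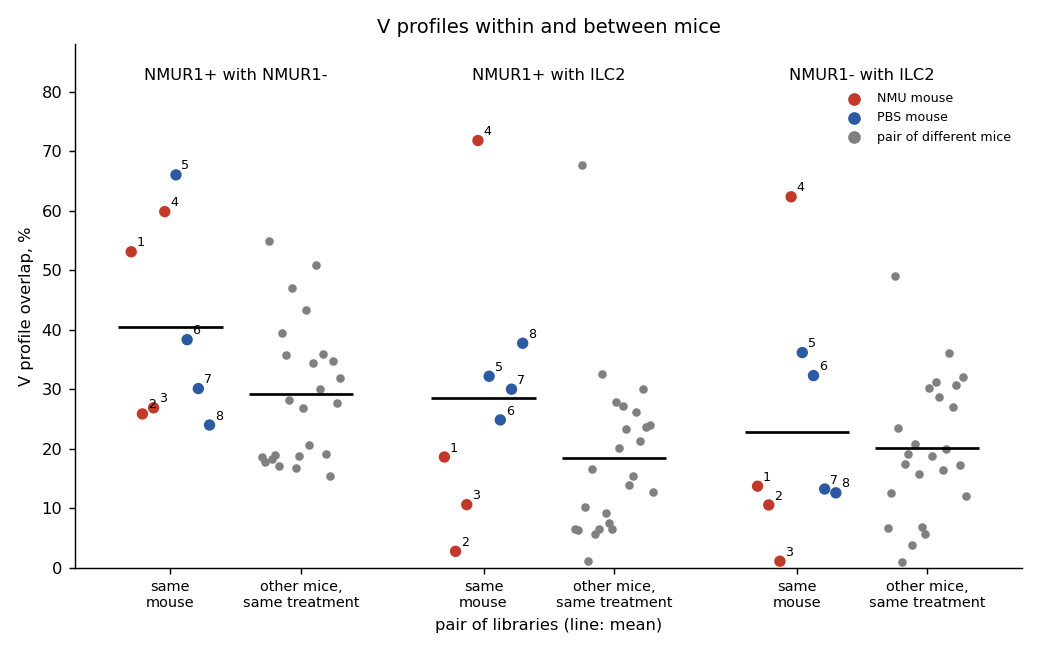
Profile overlap in percent for each pair of populations, for the 8 same-mouse pairs (mouse number beside the point, red for NMU and blue for PBS mice) and for the 24 pairs of different mice with the same treatment (gray); horizontal lines are means. Same-mouse means of 40.5, 28.5 and 22.7% stand beside 29.3, 18.4 and 20.1% for different mice, and the point sets overlap in all 3 panels.

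Same-mouse profiles were more alike than those of different mice for both pairs that include NMUR1+ CD4. For NMUR1+ CD4 with NMUR1- CD4 the mean overlap was 40.5% ± 16.8 (SD, n = 8) within a mouse and 29.3% between different mice of the same treatment, a difference of 11.2 percentage points (exact permutation of the mice within treatment, one-sided, p = 0.0104, adjusted over 3 pairs 0.0156). The same-mouse value exceeded the mean of the other mice in 6 of 8 mice. For NMUR1+ CD4 with ILC2 the means were 28.5% ± 20.9 and 18.4%, a difference of 10.1 points (7 of 8 mice; exact permutation p = 0.00174, the smallest that the design allows, adjusted 0.00521). NMUR1- CD4 with ILC2 gave 22.7% ± 19.8 and 20.1%, a difference of 2.63 points that did not pass (4 of 8 mice; exact permutation p = 0.269, adjusted 0.269). The calls depended on the measure of likeness: cosine similarity ended the first call (exact permutation, adjusted p = 0.0547), Spearman correlation of shares ended the second (exact permutation, adjusted p = 0.120), and with Pearson correlation of log shares the third pair passed (exact permutation, adjusted p = 0.0347).

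The first difference was lost at the threshold when mouse 1, 4 or 5 was left out (10.6, 8.87 and 8.72 points, exact permutation, adjusted p = 0.0625 each). The second was 11.3 points without mouse 1 and 5.6 without mouse 4 (exact permutation, adjusted p = 0.0208 each). Without the 10 segments of highest mean share it was 3.68 points (exact permutation, adjusted p = 0.191). In that setting the first was 12.9 points (exact permutation, adjusted p = 0.0156). The third was 4.26 points without mouse 1 (exact permutation, adjusted p = 0.181) and reversed to -3.30 points without mouse 4. Measured on heavy chain segments alone the differences were 12.1, 12.6 and 5.59 points (exact permutation, adjusted p = 0.0026, 0.0026 and 0.118), and on kappa segments alone 12.3, 9.19 and 1.504 points (exact permutation, adjusted p = 0.00521, 0.00781 and 0.366). Heavy and kappa segments are separate loci, and the same 2 pairs of populations passed with each. Their counts come from the same libraries and mice, so the 2 sets of tests are not independent.

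Best matches were also counted, where 1 of the 8 candidate libraries comes from the same mouse. For 2 of 8 NMUR1+ CD4 libraries the best matching NMUR1- CD4 library came from the same mouse, and for 4 of 8 in the other direction. For ILC2 libraries the best matching NMUR1+ CD4 library came from the same mouse in 5 of 8, and for NMUR1+ CD4 libraries the best matching ILC2 library in 2 of 8. Between NMUR1- CD4 and ILC2 the counts were 1 of 8 and 3 of 8.

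Segments that were high in 1 population were traced into the others. Of 29 segment entries at 5% or more in an NMUR1+ CD4 library, 8 (27.6%) were also at 5% or more in the ILC2 of the same mouse, and of 87 such pairings with the ILC2 of other mice of the same treatment 11 (12.6%) were. Into NMUR1- CD4, 10 of 29 (34.5%) carried over in the same mouse and 22 of 87 (25.3%) in other mice. Of 38 entries in NMUR1- CD4, 4 (10.5%) carried over to ILC2 of the same mouse and 14 of 114 (12.3%) to other mice. Entries of 1 library are not independent, so these shares are given without a test.

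Different mice also shared segments. Within NMUR1+ CD4, the 28 pairs of different mice overlapped by a median of 31.6% (9.55 to 61.2), within NMUR1- CD4 by 26.8% (13.6 to 48.8) and within ILC2 by 12.7% (0.249 to 34.4). The NMUR1+ CD4 libraries of mice 1 and 4, those with the most V segment RNA, overlapped by 61.2%. The ILC2 of mouse 4 overlapped by 71.8% with NMUR1+ CD4 of its own mouse, by 67.6% with NMUR1+ CD4 of mouse 1 and by 66.1% with the summed V counts of NMUR1+ CD4 from all mice other than mouse 4. That library had 0.0604% of its counts in V segments, the second lowest value among ILC2.

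**Figure D4:**
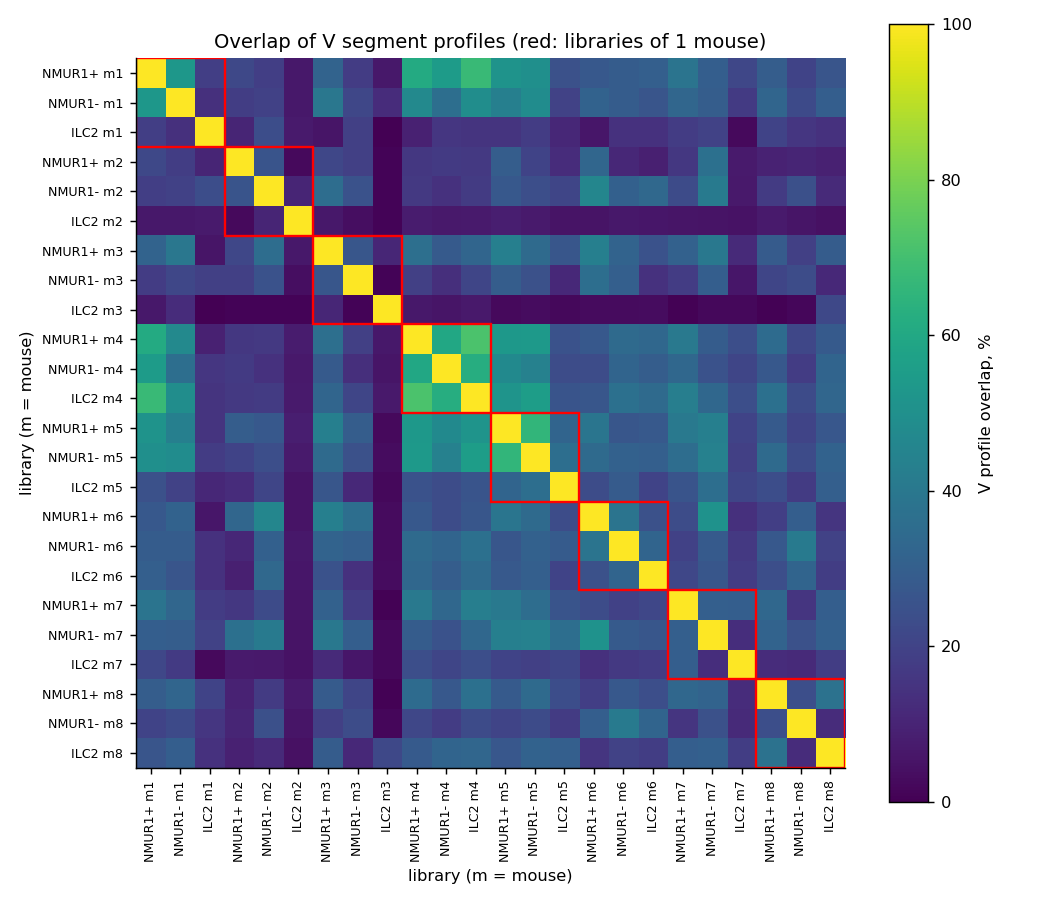
Profile overlap in percent (color) for all pairs of the 24 libraries, ordered by mouse, with red squares around the 3 libraries of a mouse. The square of mouse 4 is bright throughout (59.8, 71.8 and 62.3%), but bright cells also join mice 1, 4 and 5, and the ILC2 of mice 2 and 3 are dark against nearly all others.

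Evenness was described by the effective number of segments, the inverse of the summed squared shares, which equals 1 when a single segment holds all counts. It was 42.1, 6.05, 17.4, 43.3, 28.5, 10.4, 15.9 and 17.9 in the NMUR1+ CD4 of mice 1 to 8. It was 25.3, 8.55, 10.5, 36.6, 35.0, 13.0, 7.90 and 5.69 in NMUR1- CD4, and 8.61, 1.99, 1.02, 39.8, 18.5, 4.61, 3.62 and 10.3 in ILC2. The 7 most even profiles came from mice 1, 4 and 5, whose same-mouse overlaps were also the highest between the 2 CD4 populations, and the overlap between 2 profiles depends on how even each is.

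**Figure D5:**
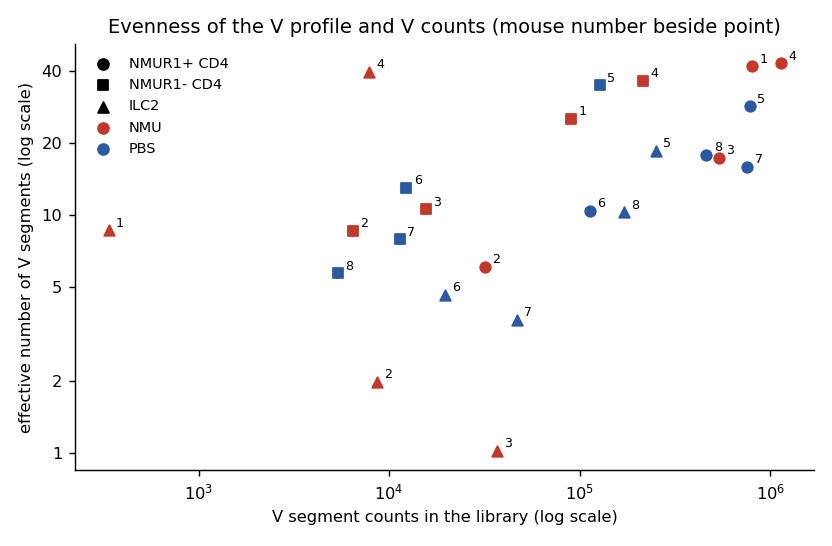
Effective number of V segments against V segment counts per library (both log scales), with circles for NMUR1+ CD4, squares for NMUR1- CD4 and triangles for ILC2, red for NMU and blue for PBS mice, and the mouse number beside each point. The ILC2 of mouse 4 stands at 39.8 effective segments with 7886 V counts, while the ILC2 of mouse 3 stands at 1.02 with 36934.

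Mean overlaps between mice were also compared by population and by treatment. For NMUR1+ CD4 against ILC2, different mice overlapped by 22.9% within a population, averaged over the 2 populations, and by 18.5% between populations. That difference was 4.34 points (exact permutation of population labels within mice, two-sided, p = 0.00781, adjusted 0.0234). Without mouse 1 it was 4.38 points (exact permutation, adjusted p = 0.0469). The mean within a population was 32.4% for NMUR1+ CD4 but 13.3% for ILC2. Different mice were thus less alike within ILC2 than between ILC2 and NMUR1+ CD4. The difference was 0.77 points for NMUR1+ CD4 against NMUR1- CD4 (exact permutation, adjusted p = 0.250) and 2.18 points for NMUR1- CD4 against ILC2 (exact permutation, adjusted p = 0.129). For mice of the same against mice of different treatments no difference passed: the differences were -2.67 points in NMUR1+ CD4, -3.00 in NMUR1- CD4 and 0.51 in ILC2 (exact permutation, one-sided, adjusted p = 0.886 for each).

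T cell receptor V segments, which the sorted T cells rearrange and transcribe themselves, were measured the same way over 140 Trav and Trbv rows. NMUR1+ CD4 and NMUR1- CD4 of the same mouse overlapped by 73.7 to 83.1%, and different mice of the same treatment by 66.7 to 82.8%. The means were 79.0 and 76.3%, a difference of 2.65 points (exact permutation, one-sided, p = 0.00174, the smallest possible), and 3.29 points without mouse 1 (exact permutation p = 0.00694). Immunoglobulin V profiles had same-mouse overlaps of 23.96 to 66.0% for the same libraries; the difference between the 2 kinds of segment was not tested.

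Heavy chain V counts tracked Igha in nearly every library. Ighv counts per 100 Igha counts were 23.9 to 32.7 in 22 of 24 libraries. They were 13.7 in the ILC2 of mouse 4 and 0.289 in the ILC2 of mouse 3, where 59 of 36934 V counts were Ighv. In that library Igkv counts per 100 Igkc counts were 100.1, the highest of a range that began at 59.9, and Igha was 91.7% of the heavy chain constant counts. The library led by Igkv6-15 thus had Igha counts with few Ighv counts, and the reason was not tested.

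Single segments were then tested between populations by edgeR, on the whole table, with adjustment over all 13509 genes tested; 162 of the 226 segments passed the filter on low counts. A segment that passed only through the group where it is high had to differ, so the counts that follow describe and support nothing. Against NMUR1- CD4, 26 of 162 segments were higher in NMUR1+ CD4 and none was lower, where 5.49% of all tested genes were higher (8.31% in either direction), with 13 Ighv and 13 Igkv among the 26. The median log2 difference was 3.66 over the 162 segments and -0.01 over all genes. With mouse as a block 26 were called, where 7.44% of all tested genes were, and 14 of them were among the 26 without the block. DESeq2 called 61, where 12.3% of all tested genes were called. Leaving out 1 mouse at a time gave 5 to 24 calls, where 4.42 to 7.52% of all tested genes were called, with 5 (4.42%) when mouse 7 and 8 (7.03%) when mouse 1 was left out, and Ighv1-74, Ighv1-77 and Igkv16-104 were called in all 8 such fits.

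Among the 26, the 4 with the largest log2 differences were Ighv10-3, Ighv1-77, Ighv14-3 and a segment of the Igkv9 family. Ighv1-77 had 0 to 530 CPM (mean 147 ± 189, SD, n = 8) in NMUR1+ CD4 and 0 to 3.83 (0.843 ± 1.33) in NMUR1- CD4, higher in 7 of 8 mice, with a log2 difference of 7.46 ± 1.55 (SE; edgeR adjusted p = 0.00478, 4.81e-05 to 0.0376 over the alternatives). Ighv10-3 had 0.292 to 1184 CPM and 0 to 10.9 CPM, with a log2 difference of 7.74 ± 1.92 (edgeR adjusted p = 0.0169), and was higher in 8 of 8 mice. The Igkv9 segment and Ighv14-3 differed by 7.60 ± 1.99 and 7.396 ± 1.76 (edgeR adjusted p = 0.0225 and 0.0166). The ranges of the 2 populations overlapped for all 4. The calls of Ighv10-3, the Igkv9 segment and Ighv14-3 were lost when some mice were left out, with edgeR adjusted p up to 0.0726, 0.235 and 0.0806.

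Against ILC2, 112 of 162 segments were higher in NMUR1+ CD4 and none was lower, where 23.5% of all tested genes were higher (38.6% in either direction). They were 55 Ighv, 55 Igkv and 2 Iglv segments, and the median log2 difference was 5.77 over the 162 segments and 0.10 over all genes. With each mouse as a block, which pairs libraries of the same animal, 64 were called where 35.9% of all tested genes were, 56 of them among the 112. In the fits without the block, 47 segments were called whichever mouse was left out; each such fit called 76 to 116 segments, with 76 without mouse 1, and 33.7 to 36.6% of all tested genes. DESeq2 called 80.0% of the 155 segments to which it gave an adjusted p, where 38.9% of all tested genes were called. Ighv5-16, Ighv2-9-1, Ighv14-3 and Ighv1-42 had the largest differences, of 10.5 ± 3.05, 10.3 ± 2.58, 10.2 ± 2.27 and 10.02 ± 2.90 on the log2 scale (edgeR adjusted p = 0.0125, 0.00506, 0.00208 and 0.0124). Ighv14-3 ranged from 0.219 to 337 CPM in NMUR1+ CD4 and from 0 to 5.33 CPM in ILC2, so the ranges overlapped. Without mouse 1 the call of Ighv2-9-1 was lost (edgeR adjusted p = 0.157).

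Between NMUR1- CD4 and ILC2, 5 of 162 segments were higher in NMUR1- CD4 and none was lower, where 24.1% of all tested genes were higher (40.5% in either direction), and the median log2 difference was 1.81 over the 162 segments and 0.12 over all genes. The 5 were Ighv3-6, Igkv8-24, Ighv1-61, Igkv6-25 and Igkv8-30. Igkv8-24 had 0.454 to 152 CPM in NMUR1- CD4 and 0 to 13.9 in ILC2, higher in 7 of 8 mice, with a log2 difference of 4.94 ± 1.67 (edgeR adjusted p = 0.0237). Ighv3-6 differed by 5.24 ± 1.72, Ighv1-61 by 4.04 ± 1.55, Igkv6-25 by 3.33 ± 1.21 and Igkv8-30 by 3.32 ± 1.27 (edgeR adjusted p = 0.0204, 0.0426, 0.0352 and 0.0441). None of the 5 was called in every fit without 1 mouse, where 1 to 5 segments and 35.3 to 38.3% of all tested genes were called, with a single call without mouse 1, 6 or 7, and the fit with mouse as a block called 2, where 38.5% of all tested genes were called; 1 of them was among the 5. DESeq2 called 33, where 39.9% of all tested genes were called.

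Between NMU and PBS mice no V segment passed in any population by edgeR, where the share of all tested genes that passed was 0% in NMUR1+ CD4, 0% in NMUR1- CD4 and 0.66% in ILC2. In NMUR1+ CD4, 132 segments were tested and 6 had an unadjusted p under 0.05, against 2.55% of all tested genes. DESeq2 called 2, Ighv7-4 and Igkv4-86, against 0.037% of all tested genes. Their log2 differences were 25.2 and -8.42, and the Ighv7 family had a median share of 0% in NMUR1+ CD4. In NMUR1- CD4, 79 were tested and 1 had an unadjusted p under 0.05, against 7.25% of all tested genes. DESeq2 called none, against 0.158%. In ILC2, 93 were tested, 92 had a lower fitted level in NMU mice, the median log2 difference was -3.48 against -0.03 over all genes, and 42 had an unadjusted p under 0.05, against 12.4% of all tested genes. DESeq2 called 22, against 5.2% of all tested genes, all lower in NMU mice, among them Ighv1-81, Igkv6-23, Igkv1-110 and Iglv1. By edgeR, Ighv1-80 was called in ILC2 when mouse 6 was left out and Ighv1-81 when mouse 7 was.

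Plasma cell genes had lower fitted levels in the same ILC2 libraries of NMU mice, with no call. In ILC2 the NMU minus PBS log2 difference was -3.65 ± 0.92 for Mzb1, a chaperone of antibody-secreting cells (edgeR adjusted p = 0.120), -3.48 ± 1.41 for Jchain (0.381), -1.97 ± 0.75 for Sdc1 (0.313) and -3.80 ± 1.31 for Igha (0.307). None of the 4 passed. Because the V segments of 1 library share their source, the 92 lower values are not 92 independent observations, and the part of plasma cell carry-over in them was not tested.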

How the data were processed

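RNA of 24 sorted libraries (8 mice, 3 populations) was prepared with a low-input kit that amplifies cDNA, per the labels' protocols. The authors deposited 1 table of whole-number counts per gene for 27179 gene identifiers. Reads were aligned with STAR 2.5.3 to mm10, per the submitters' processing notes; neither the counting program nor its annotation or strand setting is stated there. Symbols came from the RefSeq GRCm38.p6 gene table and matched 25275 identifiers (93.0%). All 24 columns matched labels and none was left over.

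Segment shares, overlaps and permutation tests were computed from the raw counts. Single segments were tested with edgeR 4.0.16 (filterByExpr with a minimum count of 10, TMM, robust quasi-likelihood fit) on the whole table with Benjamini-Hochberg adjustment and a threshold of 0.05, and with DESeq2 1.42.0 as an alternative. Treatment was tested within each population, and populations in 1 fit with 6 group means. CPM of single V segments used TMM-scaled library sizes, and CPM of marker genes used total counts. The edgeR test and the same-mouse profile test were tested on simulated data. No 2 libraries of a group agreed within sampling noise (lowest chi-square per degree of freedom 16.6).

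Libraries of 1 mouse number come from the same animal, per the sample titles. Their deviations from the group means over genes correlated with a median over mice of 0.27 for the 2 CD4 populations, 0.072 for NMUR1+ CD4 with ILC2 and 0.069 for NMUR1- CD4 with ILC2. Because the animal is shared, the fit with mouse as a replicate block was run as a paired alternative.

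The named segments were the 2 leading ones of each mouse, the 5 highest Ighv and Igkv segments and all Iglv, up to 4 per direction in each edgeR comparison, and 10 plasma and B cell genes, of which 1 is not reported here; segments and genes outside that rule were named after their values were seen. The members, gene lists and tests were chosen with earlier results of these data known. Mice are separate animals, so p-values of the treatment tests measure the spread between mice. The main population tests of summed V share and of single segments did not pair the libraries of 1 mouse. Their p-values therefore take no account of the shared animal. Leaving out mice 1 and 3 or 1 and 4 was added after seeing the data.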

Additional observations from a re-analysis of the deposited data

Results flagged for a closer look

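Among 39 groups of 4 libraries examined for a value far from the others, 2 held one, where chance alone would mark about 1 in 20. The V segment share of NMUR1- CD4 in mouse 5 was 1.01% of all counts, and the next highest of the 4 PBS libraries of that population was 0.101%. The leading segment of NMUR1+ CD4 in mouse 6, Igkv8-30, held 24.8% of V counts, and the next highest leading share among the 4 PBS libraries of that population was 15.2%.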

How the results depend on the processing

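For NMUR1+ CD4 with NMUR1- CD4, the same-mouse difference in profile overlap was 8.72 to 13.9 points as each mouse was left out, 12.1 with cosine similarity (exact permutation, adjusted p = 0.0547), 11.8 without mice 1 and 3 (0.0938) and 4.79 without mice 1 and 4 (0.188). For NMUR1+ CD4 with ILC2 it was 4.44 with Spearman correlation of shares (exact permutation, adjusted p = 0.120) and 3.68 without the 10 highest segments (0.191). It was 12.5 without mice 1 and 3 and 3.497 without mice 1 and 4 (exact permutation, adjusted p = 0.0625 each). The unadjusted p of both was 0.0208, the smallest that the 48 assignments of 6 mice allow. Whether these 2 values passed therefore depended on the other pairs of populations. For NMUR1- CD4 with ILC2 the same-mouse difference was 5.95 with Pearson correlation of log shares, which passed (exact permutation, adjusted p = 0.0347). It was -4.14 without mice 1 and 4, and -3.30 to 5.34 as each mouse was left out. The same-treatment difference in ILC2 was -5.55 with cosine similarity, -0.28 with every library thinned to 338 V counts and -3.54 to 7.23 as each mouse was left out. Leaving out mice changes both their number and which mice remain, and the causes of these changes were not tested.

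With each mouse left out, the log2 treatment difference in summed V share ran from -1.04 to 0.92 in NMUR1+ CD4 and from -4.62 to -2.46 in ILC2. The difference between NMUR1- CD4 and ILC2 ran from -0.98 to 0.92. The level correlation of NMUR1+ CD4 with ILC2 was -0.0183 per counts outside immunoglobulin genes and -0.51 without the 2 farthest mice. DESeq2 called 2 segments between treatments in NMUR1+ CD4 and 22 in ILC2, 61 between NMUR1+ and NMUR1- CD4 (12.3% of all tested genes) and 33 between NMUR1- CD4 and ILC2 (39.9%). Leaving out each mouse gave 0 to 1 treatment calls in NMUR1+ CD4 and in ILC2, 5 to 24 calls between the CD4 populations and 1 to 5 between NMUR1- CD4 and ILC2. With mouse as a replicate block, 64 segments were called between NMUR1+ CD4 and ILC2 and 2 between NMUR1- CD4 and ILC2, and the summed V share kept its calls (exact permutation, adjusted p = 0.0117, 0.0117 and 0.945).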

Other observations

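Within each locus, single segments held most counts in some libraries. In the ILC2 of mouse 2, Ighv8-8 held 93.6% of Ighv counts and Igkv4-61 held 89.2% of Igkv counts. In the ILC2 of mouse 6, Ighv1-81 held 78.3% of Ighv counts and Igkv1-110 held 60.7% of Igkv counts. In NMUR1- CD4 of mouse 8, Ighv5-4 held 67.2% of Ighv counts and Igkv8-24 held 50.7% of Igkv counts. In NMUR1+ CD4 of mouse 4, the leading Ighv segment (Ighv14-2) held 7.44% and the leading Igkv segment (Igkv12-44) held 10.3%.

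The share of Igha, the constant gene of IgA, among heavy chain constant counts ranged from 20.4% in the ILC2 of mouse 1 to 99.4% in NMUR1+ CD4 of mouse 4, with a median of 93.0% over the 24 libraries. In NMUR1- CD4 it ran from 49.7% in mouse 8 to 96.9% in mouse 4.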
